A study of Mus musculus with 11 samples.

Results

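The genes of lipid droplet and triglyceride turnover described here were followed by RNA sequencing in alveolar macrophages (AMs) that lack the retinoid X receptors RXRα and RXRβ. They are 10 of the 12932 genes of the expression table, taken by symbol with no threshold on a measured value. Earlier results of these data were known when they were chosen. All 10 passed the filter on low levels. They comprise the droplet proteins Cidec, Plin2 and Plin3, the enzymes of triglyceride synthesis Gpd1, Dgat1 and Dgat2, and the lipolysis genes Pnpla2, Abhd5, Lipe and Mgll.

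AMs were sorted from 9-week-old C57BL/6J mice of both sexes, with 40000 sorted cells behind each library, and sequenced from one end over 60 bases. Control mature AMs (mAMs, CD11b- SiglecF+) came from littermates of genotype CD11cCre- Rxrabfl/fl, which carry floxed Rxra and Rxrb and no Cre, and gave 4 libraries. RXR-deficient mAMs (4 libraries) and RXR-deficient immature AMs (ImmAMs, CD11b+ SiglecF+, 3 libraries, replicates 2 to 4) came from mice of genotype CD11cCre+ Rxrabfl/fl, in which the Cd11c promoter drives Cre in CD11c+ cells, dendritic cells included. No library held ImmAMs of control mice, so in every comparison of ImmAMs with control mAMs the genotype and the CD11b gate cannot be told apart. The design describes each library as an individual biological replicate, and the labels give no sex. Of RXR-deficient mAMs, replicates 1 to 3 were fitted and replicate 4 is shown only, because the legends count fewer mice in that group than there are libraries.

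A lipid droplet is a core of triglyceride and cholesteryl ester inside a phospholipid monolayer coated with proteins. Triglyceride is built from glycerol 3-phosphate and fatty acids and is taken apart again by lipases that act in turn on triglyceride, diglyceride and monoglyceride. AMs take up and catabolise surfactant lipid, and RXRs pair with the lipid-sensing receptors PPARγ and LXR, which bind fatty acid and oxysterol ligands.

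Levels are CPM (reads scaled to a common library total) on library sizes scaled by the trimmed mean of M values (TMM). Between 16659960 and 37873532 reads were counted per library, so that every value of the 10 genes rested on at least 10 reads and the lowest, those of Gpd1 in ImmAMs, on 10 to 29. Rxra stood at 344 CPM ± 29.0 (SD, n = 4) in control mAMs and did not differ in RXR-deficient mAMs (log2 fold change 0.00, SE 0.07, adjusted p = 0.993), and Rxrb missed the threshold there (−0.37, SE 0.12, adjusted p = 0.0972). In ImmAMs against control mAMs both were lower, Rxra by a log2 fold change of −0.24 (adjusted p = 0.0141) and Rxrb by −0.82 (adjusted p = 0.000126). The table sums each gene over its transcripts and does not show which exons were read, so these values do not check the deletion. All 10 AM markers were in the table, with a summed level of 20777 to 26972 CPM in control mAMs, 25142 to 31640 in RXR-deficient mAMs and 24403 to 26198 in ImmAMs. Taken singly, 8 of these markers were lower and 2 higher in ImmAMs than in control mAMs, which the sum does not show.

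The sequences before the start sites show which letters of nuclear receptor sites lie close to these genes. RefSeq windows (GRCm38.p6) were at hand for 7 of the 10 genes, 10 windows in all, and the 250 bases before each start were searched on both strands. The 3 windows below belong to Cidec, which had the largest difference in ImmAMs among these 7 genes, and to the only genes with the half-site AGGTCA, Plin2 and Abhd5. Capitals mark the half-site, which reads TGACCT on the strand shown. They also mark the CCAAT box and the GC box (GGGCGG), and a window all in lower case holds none of the 3. A further window of Cidec (chr6:113434765-113435014), not printed, holds none of the 3 either.
Cidec (chr6:113435761-113436010, minus strand): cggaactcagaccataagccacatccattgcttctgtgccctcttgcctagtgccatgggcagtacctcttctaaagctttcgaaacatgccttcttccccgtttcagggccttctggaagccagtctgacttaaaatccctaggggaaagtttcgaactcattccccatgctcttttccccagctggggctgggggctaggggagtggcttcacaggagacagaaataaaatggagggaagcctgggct
Plin2 (chr4:86670060-86670309, minus strand): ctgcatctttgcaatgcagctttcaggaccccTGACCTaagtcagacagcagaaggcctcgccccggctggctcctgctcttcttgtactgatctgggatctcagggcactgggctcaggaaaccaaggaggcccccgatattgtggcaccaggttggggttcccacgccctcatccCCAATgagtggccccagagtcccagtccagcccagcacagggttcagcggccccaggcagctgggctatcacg
Abhd5 (chr9:122351366-122351615, plus strand): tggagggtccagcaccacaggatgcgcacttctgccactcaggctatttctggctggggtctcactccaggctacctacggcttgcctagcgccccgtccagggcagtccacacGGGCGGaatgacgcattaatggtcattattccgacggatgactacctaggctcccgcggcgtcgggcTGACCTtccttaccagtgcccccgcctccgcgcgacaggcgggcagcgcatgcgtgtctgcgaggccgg
The first base of the half-site lay at −218 in Plin2 and at −69 in Abhd5, counted from the start site. These 2 of 10 windows compare with 14.0% of the 32851 windows of all genes. A direct repeat of the looser half-site AGGNCA with 1 base between the copies was in 0 of the 10 windows and in 0.338% of all windows. TATAAA was in 0 of 10 and 12.4%, CCAAT in 2 of 10 (Plin2 and Plin3) and 33.8%, and GGGCGG in 5 of 10 (of Abhd5, Lipe, Mgll, Plin3 and Pnpla2) and 32.7%. A match is a run of letters and was not tested as a binding site.

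Plin2 was the most abundant of the 10 transcripts and Lipe the least in control mAMs. Divided by the length of the merged exons of each gene, the level of Plin2 was 430 CPM per kb, followed by Cidec at 209, Pnpla2 at 70.0, Mgll at 67.7, Plin3 at 34.2, Abhd5 at 33.2, Gpd1 at 23.0, Dgat1 at 22.3, Dgat2 at 12.4 and Lipe at 1.58. The libraries of the neighbours Pnpla2 and Mgll, of Plin3 and Abhd5, and of Gpd1 and Dgat1 overlapped, and those of the other neighbours did not. In ImmAMs the order was Plin2 (163 CPM per kb), Mgll (43.6), Pnpla2 (30.2), Plin3 (29.1), Abhd5 (17.2), Dgat1 (8.43), Dgat2 (7.38), Cidec (4.82), Lipe (3.03) and Gpd1 (0.399), and of these neighbours only Pnpla2 and Plin3 overlapped. Cidec thus stood 2nd in mAMs of either genotype and 8th in ImmAMs, and Gpd1 stood 7th in control mAMs, 9th in RXR-deficient mAMs and 10th in ImmAMs. With the length of the longest transcript instead, Mgll came before Pnpla2 in control mAMs and Plin3 moved from 5th to 7th, while these places of Cidec were kept and Gpd1 went from 8th to 9th and 10th.

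**Figure D1:**
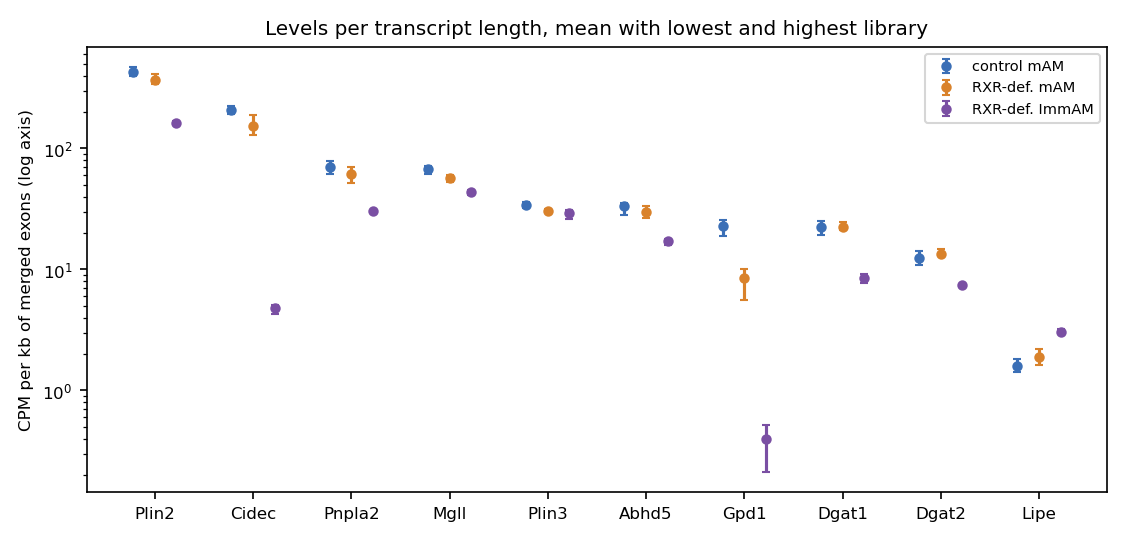
Level of each gene in CPM per kb of merged exons (log axis), with the mean as a point and the lowest and highest fitted library as bars, for control mAMs (n = 4), RXR-deficient mAMs (n = 3) and ImmAMs (n = 3). Cidec and Gpd1 drop furthest in ImmAMs, to 4.82 and 0.399 CPM per kb, and Lipe is the one gene that is highest there.

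Summed over the 10 genes, the level was 2816 to 3203 CPM in the control mAM libraries, 2305 to 2735 CPM in the 4 RXR-deficient mAM libraries and 1137 to 1203 CPM in the ImmAM libraries. The 3 ranges did not overlap, and Plin2 alone made up 48.5% to 53.2% of the sum in each library. In bulk samples, fewer cells of a type and less RNA per cell cannot be told apart.

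Of the comparisons, 2 share the control mAMs, 2 share the RXR-deficient mAMs and 2 share the ImmAMs, so they are not independent. In RXR-deficient mAMs, 2 of the 10 genes passed an adjusted p of 0.05 in limma against control mAMs, both lower (Cidec and Gpd1), where 4.84% of the 12889 genes tested passed in either direction and 2.59% were lower. In ImmAMs against control mAMs all 10 passed, 9 lower and Lipe higher, where 48.1% of all genes passed, 25.3% lower and 22.8% higher. Against RXR-deficient mAMs, 8 were lower in ImmAMs, Lipe was higher and Plin3 did not pass, where 37.9% of all genes passed, 20.2% lower and 17.7% higher. Libraries did not overlap for 4 of the 10 between the fitted mAM libraries, all lower (Cidec, Gpd1, Plin3 and Mgll), where 20.1% of all genes did not overlap, 11.2% lower and 8.92% higher. ImmAMs did not overlap with control mAMs for all 10 (9 lower and 1 higher, against 51.3% of all genes, 26.4% lower and 24.9% higher) nor with RXR-deficient mAMs for 9 (8 lower and 1 higher, against 51.2%, 26.3% lower and 24.8% higher). The median log2 fold change of the 10 genes was −0.17, −1.07 and −0.95 in the 3 comparisons, and that of all genes tested was −0.00, −0.00 and −0.01.

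**Figure D2:**
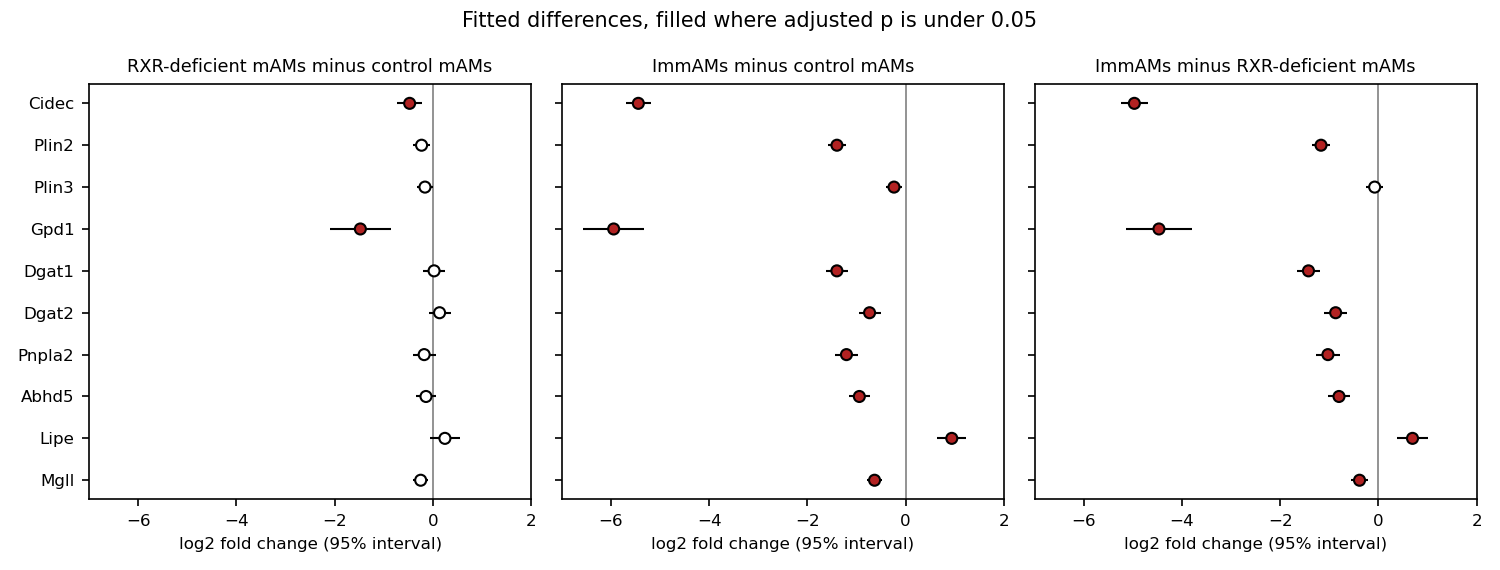
Log2 fold change of each gene with its 95% interval in limma, in the 3 comparisons, with filled points where the adjusted p is under 0.05. Only Gpd1 and Cidec are filled for RXR-deficient mAMs (−1.48 and −0.47), all 10 for ImmAMs against control mAMs, and all but Plin3 for ImmAMs against RXR-deficient mAMs.

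Among the droplet proteins, Cidec showed the larger differences. Cidec (ENSMUSG00000030278, chr6:113424634-113435760, minus strand) encodes the CIDE protein that sits where droplets touch and drives lipid transfer from small to large droplets. Its level was 358, 419, 376 and 399 CPM in replicates 1 to 4 of control mAMs, 261, 349, 239 and 279 CPM in replicates 1 to 4 of RXR-deficient mAMs, and 7.90, 9.53 and 9.43 CPM in ImmAMs. Every RXR-deficient mAM library lay below every control library, replicate 2 by the least, and the ImmAM libraries lay far below both. Cidec was 28% lower in RXR-deficient mAMs (log2 fold change −0.47, SE 0.12, adjusted p = 0.0420), with means of 388 CPM ± 26.5 (SD, n = 4) in control and 283 CPM ± 58.5 (SD, n = 3) in RXR-deficient mAMs. The call was lost when any 1 of 7 of the 10 libraries was left out, with adjusted p between 0.0554 without ImmAM replicate 3 and 0.161 without RXR-deficient mAM replicate 3, the others being control replicates 2, 3 and 4, RXR-deficient mAM replicate 1 and ImmAM replicate 4. With replicate 4 in the fit it was kept (−0.47, adjusted p = 0.0344). In ImmAMs, Cidec was 43.5-fold lower than in control mAMs (−5.44, SE 0.12, adjusted p = 4.95e-12) and 31.3-fold lower than in RXR-deficient mAMs (−4.97, SE 0.13, adjusted p = 3.58e-11).

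Plin2 (ENSMUSG00000028494, chr4:86648386-86670060, minus strand) encodes perilipin 2, the constitutive droplet coat protein of cells that are not adipocytes. Its levels were 1464, 1648, 1522 and 1402 CPM in control mAMs, 1221, 1454, 1191 and 1417 CPM in RXR-deficient mAMs and 571, 589 and 554 CPM in ImmAMs. RXR-deficient replicates 2 and 4 lay within the control range, and replicates 1 and 3 below it, while ImmAMs lay below all mAM libraries. The difference in RXR-deficient mAMs did not pass (log2 fold change −0.23, SE 0.08, adjusted p = 0.111), although it did without replicate 2 of that group (−0.32, adjusted p = 0.0292). In ImmAMs Plin2 was 2.64-fold lower than in control mAMs (−1.40, SE 0.08, adjusted p = 2.07e-08) and 2.25-fold lower than in RXR-deficient mAMs (−1.17, SE 0.09, adjusted p = 3.83e-07).

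Plin3 (ENSMUSG00000024197, chr17:56277476-56292873, minus strand) encodes perilipin 3, an exchangeable coat protein that moves between cytosol and nascent droplets, and it moved least in ImmAMs. Control mAMs held 123, 131, 129 and 136 CPM, RXR-deficient mAMs 111, 121, 116 and 130.3 CPM, and ImmAMs 114, 117 and 99 CPM. The 3 fitted RXR-deficient libraries were below the controls and replicate 4 was among them, and the difference did not pass (log2 fold change −0.16, SE 0.07, adjusted p = 0.202). In ImmAMs Plin3 was 15.2% lower than in control mAMs (−0.24, SE 0.07, adjusted p = 0.0164), a call lost without ImmAM replicate 4 (adjusted p = 0.102). Between ImmAMs and RXR-deficient mAMs the libraries overlapped (−0.08, 95% interval −0.24 to 0.09, adjusted p = 0.474).

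**Figure D3:**
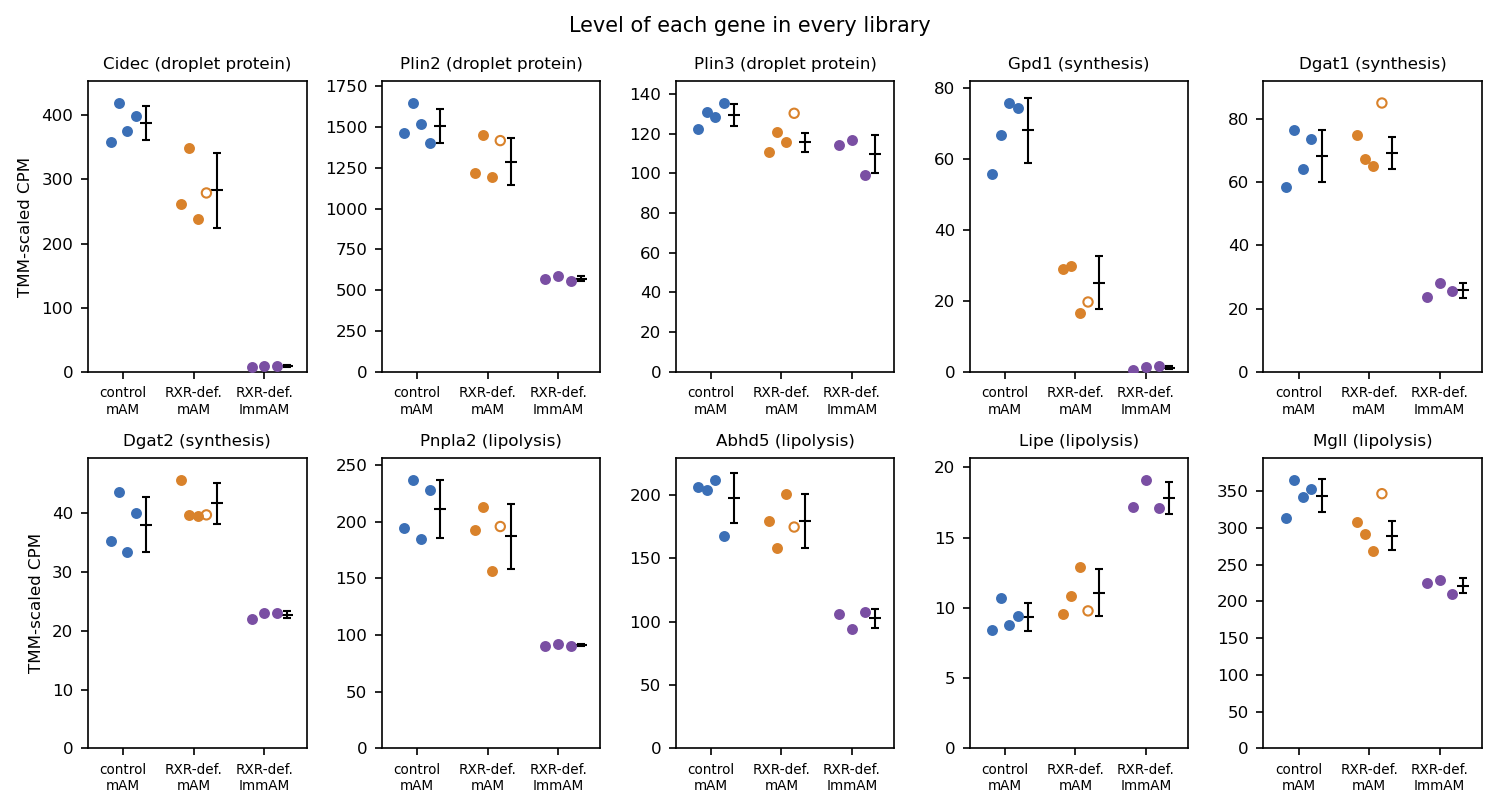
Level of each gene in CPM (axis from 0) in every library, 1 point per library, with replicate 4 of RXR-deficient mAMs as an open point and the mean ± SD of the fitted libraries beside each group. Gpd1 and Cidec step down from control to RXR-deficient mAMs and again to ImmAMs, Lipe is highest in ImmAMs at 17.1 to 19.1 CPM, and the other genes overlap or nearly overlap between the mAM groups.

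Of the synthesis genes, Gpd1 was lower in both RXR-deficient populations and the 2 Dgat genes only passed in ImmAMs. Gpd1 (ENSMUSG00000023019, chr15:99717515-99725005, plus strand) encodes the cytosolic glycerol 3-phosphate dehydrogenase, which makes glycerol 3-phosphate, the backbone of triglyceride, from a glycolytic intermediate. It was read at 55.7, 66.8, 75.8 and 74.2 CPM in control mAMs, 29.1, 29.9, 16.5 and 19.7 CPM in RXR-deficient mAMs and 0.626, 1.37 and 1.55 CPM in ImmAMs. The 3 groups did not overlap. Gpd1 was 2.78-fold lower in RXR-deficient mAMs than in control mAMs (log2 fold change −1.48, SE 0.29, adjusted p = 0.0164), with means of 68.1 CPM ± 9.15 (SD, n = 4) and 25.2 CPM ± 7.54 (SD, n = 3), and replicate 4 left it lower (−1.55, adjusted p = 0.00654). Without RXR-deficient mAM replicate 3, the lowest, it missed the threshold (−1.20, adjusted p = 0.0729). In ImmAMs the fit gave a 61.6-fold lower level than in control mAMs (−5.94, SE 0.29, adjusted p = 4.19e-09) and a 22.1-fold lower level than in RXR-deficient mAMs (−4.47, SE 0.31, adjusted p = 1.96e-07), and with a pseudocount of 1 CPM these differences were −5.00 and −3.57.

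Dgat1 (ENSMUSG00000022555, chr15:76502015-76511953, minus strand) and Dgat2 (ENSMUSG00000030747, chr7:99153658-99182719, minus strand) encode unrelated acyltransferases that catalyse the last step of triglyceride synthesis. Dgat1 stood at 58.5, 76.5, 64.2 and 73.6 CPM in control mAMs, 74.8, 67.1, 65.2 and 85.0 CPM in RXR-deficient mAMs and 23.6, 28.1 and 25.6 CPM in ImmAMs. The mAM groups overlapped, apart from replicate 4 above all controls, and ImmAMs were below both. The difference between the mAM groups was 0.02 on the log2 scale (95% interval −0.20 to 0.25, adjusted p = 0.912), and in ImmAMs Dgat1 was 2.64-fold lower than in control mAMs (−1.40, SE 0.10, adjusted p = 2.02e-07) and 2.68-fold lower than in RXR-deficient mAMs (−1.42, SE 0.11, adjusted p = 5.97e-07). Dgat2 had 35.2, 43.7, 33.3 and 40.0 CPM in control mAMs, 45.8, 39.7, 39.6 and 39.7 CPM in RXR-deficient mAMs and 22.1, 23.1 and 23.1 CPM in ImmAMs. Here too the mAM groups overlapped, with replicate 1 of RXR-deficient mAMs the highest library, and the ImmAMs were lower. Dgat2 differed by 0.14 between the mAM groups (95% interval −0.09 to 0.36, adjusted p = 0.452) and was 1.66-fold lower in ImmAMs than in control mAMs (−0.73, SE 0.10, adjusted p = 7.05e-05) and 1.83-fold lower than in RXR-deficient mAMs (−0.87, SE 0.11, adjusted p = 4.28e-05).

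The lipolysis genes showed no call in RXR-deficient mAMs, and in ImmAMs 3 were lower and Lipe was higher. Pnpla2 (ENSMUSG00000025509, chr7:141455198-141460743, plus strand) encodes adipose triglyceride lipase (ATGL), which removes the first fatty acid of triglyceride. Control mAMs had 195, 237, 185 and 228 CPM, RXR-deficient mAMs 193, 213, 156 and 196 CPM, and ImmAMs 90.6, 92.4 and 90.5 CPM. The mAM groups overlapped and the ImmAMs lay below them with little spread. In RXR-deficient mAMs the difference was −0.18 on the log2 scale (95% interval −0.41 to 0.06, adjusted p = 0.341), and in ImmAMs Pnpla2 was 2.31-fold lower than in control mAMs (−1.20, SE 0.11, adjusted p = 1.17e-06) and 2.04-fold lower than in RXR-deficient mAMs (−1.03, SE 0.12, adjusted p = 1.51e-05).

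Abhd5 (ENSMUSG00000032540, chr9:122351608-122381524, plus strand) encodes CGI-58, the coactivator of ATGL. It was read at 206, 204, 212 and 168 CPM in control mAMs, 179, 158, 201 and 175 CPM in RXR-deficient mAMs and 106, 94.1 and 107 CPM in ImmAMs. Control replicate 4 lay among the RXR-deficient mAMs, and ImmAMs were below all mAMs. Abhd5 differed by −0.14 in RXR-deficient mAMs (95% interval −0.35 to 0.07, adjusted p = 0.410) and was 1.92-fold lower in ImmAMs than in control mAMs (−0.94, SE 0.10, adjusted p = 4.80e-06) and 1.74-fold lower than in RXR-deficient mAMs (−0.80, SE 0.11, adjusted p = 5.64e-05).

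Lipe (ENSMUSG00000003123, chr7:25379527-25398710, minus strand) encodes hormone-sensitive lipase, which acts on diglyceride and cholesteryl ester. Its levels were 8.41, 10.7, 8.76 and 9.40 CPM in control mAMs, 9.53, 10.8, 12.9 and 9.78 CPM in RXR-deficient mAMs and 17.2, 19.1 and 17.1 CPM in ImmAMs. ImmAMs were above every mAM library, the reverse of the other 9 genes, and the mAM groups overlapped. Lipe was 1.92-fold higher in ImmAMs than in control mAMs (log2 fold change 0.94, SE 0.14, adjusted p = 9.94e-05) and 1.62-fold higher than in RXR-deficient mAMs (0.69, SE 0.15, adjusted p = 0.00236), and between the mAM groups it differed by 0.24 (95% interval −0.05 to 0.54, adjusted p = 0.302).

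Mgll (ENSMUSG00000033174, chr6:88724412-88828360, plus strand) encodes monoglyceride lipase, which releases the last fatty acid and also breaks down the endocannabinoid 2-arachidonoylglycerol. Control mAMs held 313, 366, 342 and 353 CPM, RXR-deficient mAMs 308, 292, 268 and 347 CPM, and ImmAMs 225, 230 and 209 CPM. The 3 fitted RXR-deficient libraries lay below the controls and replicate 4 within them, and ImmAMs were lowest. The difference in RXR-deficient mAMs did not pass in limma (−0.25, SE 0.07, adjusted p = 0.0651) and passed in DESeq2 (−0.25, adjusted p = 0.0198) and without control replicate 1 (−0.29, adjusted p = 0.0335). In ImmAMs Mgll was 1.55-fold lower than in control mAMs (−0.63, SE 0.07, adjusted p = 1.06e-05) and 1.31-fold lower than in RXR-deficient mAMs (−0.38, SE 0.08, adjusted p = 0.00159).

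Markers of some other cells and cell cycle genes moved with the ImmAM group, and their part in these differences was not tested. The 4 of 6 interstitial macrophage markers in the table summed to 0.643 to 1.23 CPM in control mAMs, 2.25 to 9.09 CPM in RXR-deficient mAMs and 205 to 223 CPM in ImmAMs. The 3 of 4 monocyte markers summed to 10.9 to 17.1 CPM in control mAMs, 12.4 to 25.2 CPM in RXR-deficient mAMs and 83.2 to 91.1 CPM in ImmAMs. For the 2 of 5 dendritic cell markers the sums were 5.4 to 7.24, 5.45 to 8.12 and 20.7 to 24.1 CPM in the same order. For the 5 of 6 neutrophil markers they were 30.7 to 39.5, 24.6 to 40.6 and 51.7 to 61.9 CPM. Of these 3 lists, 2, 2 and 4 markers were called higher in ImmAMs than in control mAMs. Against RXR-deficient mAMs, 1 marker of each list was called higher. Of the 10 AM markers, 8 were lower and 2 higher in ImmAMs than in control mAMs, and 1 was higher and 1 lower in RXR-deficient mAMs. The 6 cell cycle genes summed to 314 to 399 CPM in control mAMs, 277 to 341 CPM in RXR-deficient mAMs and 30.9 to 32.1 CPM in ImmAMs, where all 6 were lower than in control mAMs, and 1 was lower in RXR-deficient mAMs. The 7 genes of dissociation stress summed to 267 to 348, 296 to 474 and 296 to 322 CPM in the same order, with 2 higher in ImmAMs than in control mAMs. Only genes that reached 1 CPM in at least 3 samples were retained, so none of the markers read here could be at 0 in every library.

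To set the library scaling aside, 3 ratios between transcripts of the same library were taken, each in CPM per kb. The ratio of Dgat2 to Dgat1 was 0.597, 0.566, 0.515 and 0.539 in control mAMs, 0.606, 0.587, 0.601 and 0.463 in RXR-deficient mAMs and 0.929, 0.815 and 0.894 in ImmAMs. Every ImmAM library was above every mAM library, and the mAM groups overlapped. On the log2 scale the ratio was 0.67 higher in ImmAMs than in control mAMs (two-sided exact permutation p = 0.0286, adjusted p = 0.0643 over 9 tests) and 0.55 higher than in RXR-deficient mAMs (exact permutation p = 0.1, adjusted p = 0.129).

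The ratio of Plin2 to Plin3 was 12.9, 13.6, 12.7 and 11.2 in control mAMs, 11.9, 13, 11.1 and 11.7 in RXR-deficient mAMs and 5.4, 5.43 and 6.04 in ImmAMs. The ImmAM libraries were the lowest and the mAM groups overlapped, with log2 differences of −1.16 against control mAMs (exact permutation p = 0.0286, adjusted p = 0.0643) and −1.09 against RXR-deficient mAMs (exact permutation p = 0.1, adjusted p = 0.129). For Cidec to Plin2 it was 0.463, 0.481, 0.468 and 0.539 in control mAMs, 0.405, 0.454, 0.379 and 0.372 in RXR-deficient mAMs and 0.0262, 0.0306 and 0.0322 in ImmAMs, with no overlap between any of the groups. Cidec per Plin2 was lower by −0.24 on the log2 scale in RXR-deficient mAMs (exact permutation p = 0.0286, adjusted p = 0.0643) and by −4.04 in ImmAMs against control mAMs (exact permutation p = 0.0286, adjusted p = 0.0643). None of the 9 ratio tests passed after adjustment, and the smallest p that the design allows is 0.0286 for 4 libraries against 3 and 0.1 for 3 against 3. With replicate 4 of RXR-deficient mAMs included, 7 of the 9 passed (adjusted p = 0.0367 each), all but Dgat2 to Dgat1 and Plin2 to Plin3 between the mAM groups.

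**Figure D4:**
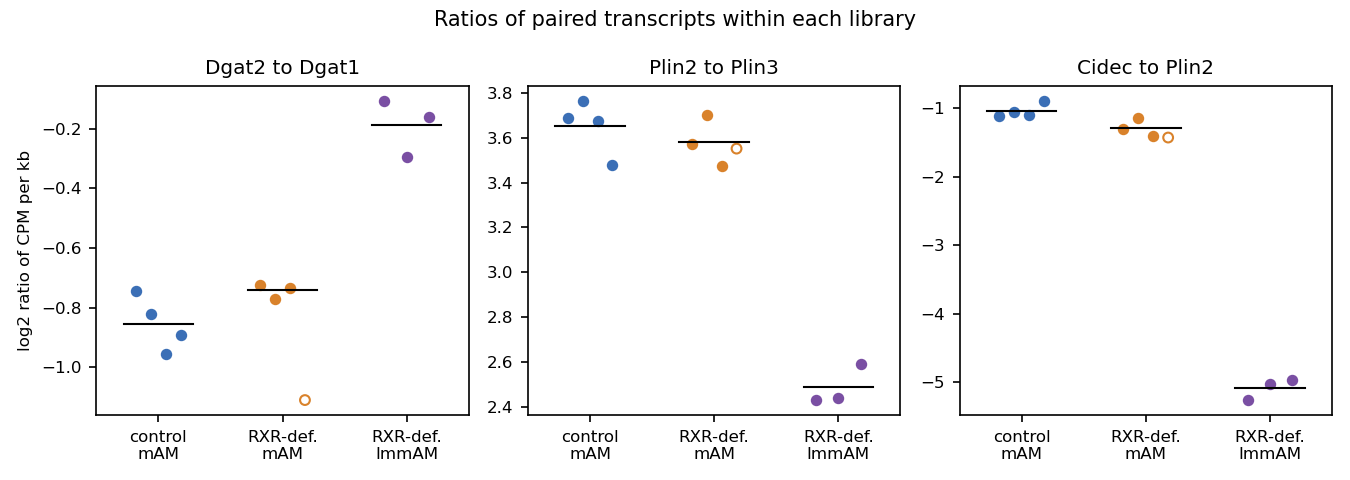
Log2 ratio of CPM per kb for 3 pairs of transcripts, 1 point per library, with the mean of the fitted libraries as a line and replicate 4 of RXR-deficient mAMs as an open point; axes differ between panels and do not start at 0. ImmAMs stand apart from both mAM groups in all 3, and the mAM groups are separate only for Cidec to Plin2.

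Beside the 10 genes, 31 of 42 further genes of the pathway were tested. In RXR-deficient mAMs, 1 was higher (Soat1) and 1 lower (Plin1), and their median log2 fold change was −0.03. In ImmAMs against control mAMs 5 were higher and 12 lower (median −0.10), and against RXR-deficient mAMs 6 were higher and 11 lower (median −0.11). These counts stand against the 4.84%, 48.1% and 37.9% of all genes given above.

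Plin1, which encodes the perilipin of large droplets best known from adipocytes, went the way of Cidec and Gpd1. It had 9.21, 12.0, 14.8 and 10.9 CPM in control mAMs, 5.70, 5.29, 4.52 and 5.15 CPM in RXR-deficient mAMs and 0.209, 0.209 and 0.289 CPM (3 to 5 reads) in ImmAMs. The groups did not overlap, with log2 fold changes of −1.17 in RXR-deficient mAMs (SE 0.25, adjusted p = 0.0234) and −5.63 in ImmAMs (SE 0.25, adjusted p = 2.00e-09), both against control mAMs. The first was lost without control replicates 2, 3 or 4 or RXR-deficient replicates 1 or 3 (adjusted p of 0.0535 to 0.102), and the second was −3.35 with a pseudocount of 1 CPM. Among the other coat and assembly genes, Cideb, a CIDE protein of lipoprotein-secreting cells, was lower in ImmAMs (−1.57, adjusted p = 0.000240). Of the 9 tested on this list, 4 were lower and 1 higher in ImmAMs than in control mAMs, where 25.3% of all genes were lower and 22.8% higher.

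Of the 15 other genes tested on the synthesis list, 4 were lower and 3 higher in ImmAMs than in control mAMs. Of all genes tested, 25.3% were lower and 22.8% higher there. The list also holds enzymes around the pathway, so these counts do not give a direction of synthesis. The lower ones were Gpat3 (log2 fold change −1.39, adjusted p = 3.09e-07), the first acyltransferase of the pathway at the endoplasmic reticulum, Lpin1 (−1.32, adjusted p = 2.68e-07), a phosphatidate phosphatase, Gk (−1.19, adjusted p = 4.64e-05), glycerol kinase, and Gpd2 (−0.89, adjusted p = 2.62e-06), the mitochondrial glycerol 3-phosphate dehydrogenase. The higher ones were Acsl3 (1.70, adjusted p = 0.000255), an acyl-CoA synthetase of nascent droplets, Agpat2 (0.84, adjusted p = 0.000793), which makes phosphatidic acid, and Soat1 (0.68, adjusted p = 1.23e-06), which esterifies cholesterol. Acsl3 was low, with means of 1.64 CPM in control mAMs (26 to 71 reads) and 5.35 CPM in ImmAMs. Its log2 fold change ranged from 1.26 to 1.75 over the alternatives that kept it. Soat1 was also the 1 gene of this list called in RXR-deficient mAMs (0.24, SE 0.06, adjusted p = 0.0461), at 374, 389, 389 and 337 CPM against 341, 319, 342 and 301 CPM in control mAMs. With replicate 4, which overlaps the controls, Soat1 did not pass (0.19, adjusted p = 0.173), and of the 10 fits that left out 1 library it passed in 1, the one without control replicate 1. Of the 7 other genes tested on the list of lipolysis and its inhibitors, 4 were lower and 1 higher in ImmAMs than in control mAMs. The shares of all genes tested were 25.3% lower and 22.8% higher in that comparison. The list mixes lipases and inhibitors, so these counts do not give a direction of lipolysis. Abhd6, a second monoglyceride lipase, was lower (−1.28, adjusted p = 0.000503). Lipa was lower as well (−0.49, adjusted p = 0.000486), with means of 1126 CPM in control mAMs and 799 CPM in ImmAMs. G0s2 (−2.48, adjusted p = 0.00142) and Pnpla3 (−3.66, adjusted p = 8.42e-05) were lower too, on 29 reads or fewer in each ImmAM library. Ddhd2 was the 1 higher gene (0.27, adjusted p = 0.0327).

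**Figure D5:**
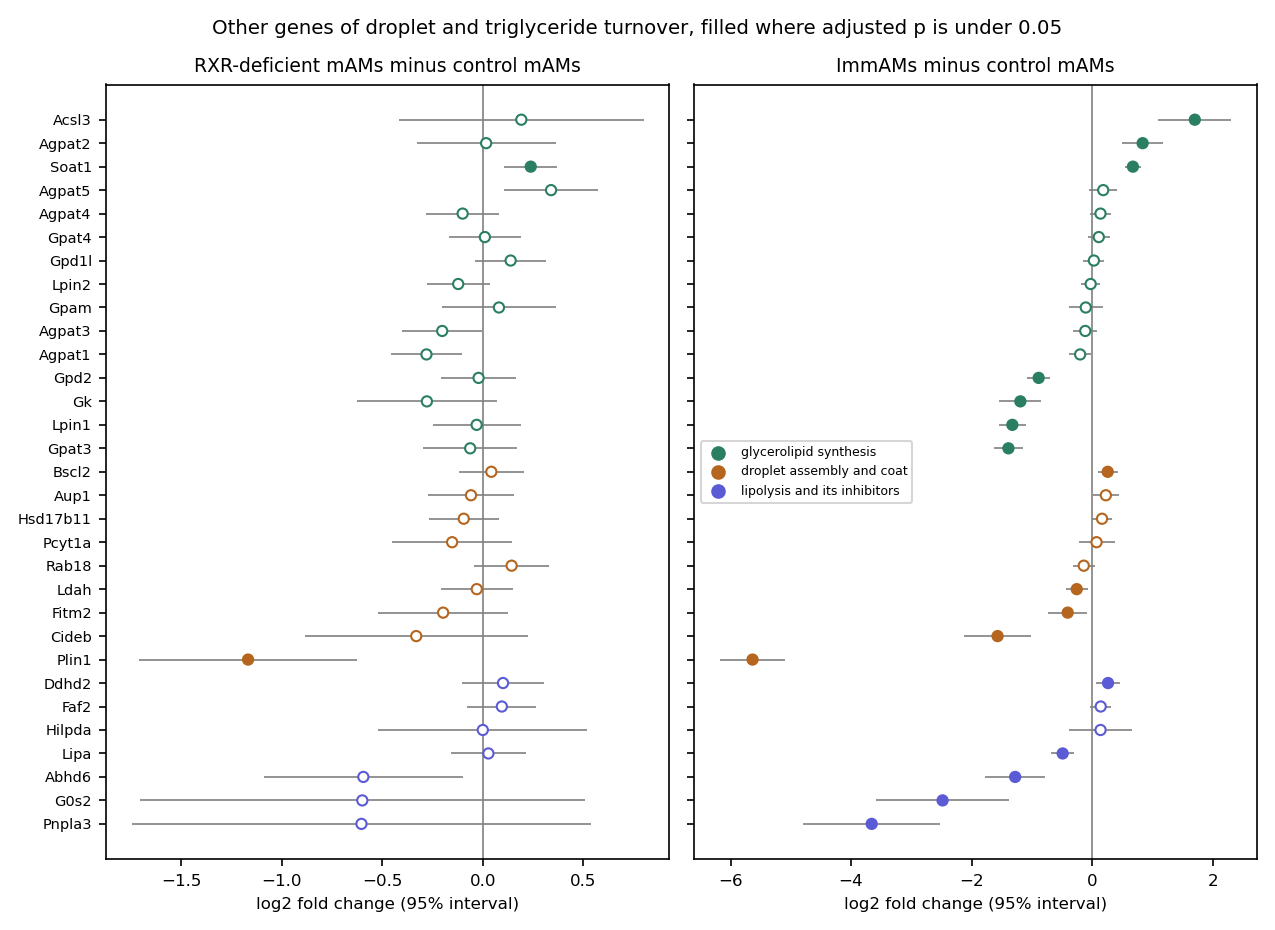
Log2 fold change with 95% interval of the 31 other pathway genes tested, against control mAMs, with filled points where the adjusted p is under 0.05. The groups are synthesis (green), droplet assembly and coat (brown) and lipolysis with its inhibitors (blue). Only Soat1 (0.24) and Plin1 (−1.17) are filled for RXR-deficient mAMs, against 5 higher and 12 lower genes for ImmAMs, and the axes of the panels differ.

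The receptors that pair with RXR and SREBP1, the transcription factor of lipogenesis, gave the following values. Nr1h3, which encodes LXRα, was at 39.5, 41.4, 33.3 and 42.4 CPM in control mAMs, 29.0, 34.7, 22.4 and 30.2 CPM in RXR-deficient mAMs and 4.86, 6.70 and 6.12 CPM in ImmAMs. It did not pass in RXR-deficient mAMs, where 1 library overlapped the controls (log2 fold change −0.46, SE 0.16, adjusted p = 0.102), and was lower in ImmAMs (−2.74, SE 0.16, adjusted p = 2.00e-08). Srebf1 was read at 120, 130, 139 and 148 CPM in control mAMs, 99.9, 92.4, 89.8 and 118 CPM in RXR-deficient mAMs and 102, 113 and 103 CPM in ImmAMs, with both RXR-deficient populations below every control library. It was lower in RXR-deficient mAMs (−0.51, SE 0.08, adjusted p = 0.00558) and in ImmAMs (−0.33, SE 0.08, adjusted p = 0.00401), both against control mAMs. Pparg (0.19 and 0.14, adjusted p = 0.135 and 0.129), Ppard (−0.03 and 0.20, adjusted p = 0.898 and 0.104) and Nr1h2 (−0.36 and −0.17, adjusted p = 0.0641 and 0.201) did not pass in limma in either comparison with control mAMs. In RXR-deficient mAMs Nr1h2 lay below every control library in the 3 fitted libraries, and it passed in DESeq2 (−0.35, adjusted p = 0.0172) and without control replicate 1 (adjusted p = 0.0462).

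The genes whose levels followed a member most closely were found by the root mean square difference of log2 values, each gene centred on its own mean over the 11 libraries, among 9959 genes at a mean of at least 5 CPM. Within each role they were sought for the gene with the highest mean CPM over the 11 libraries, a scale not corrected for length. For the droplet protein gene Plin2 they were Acat1 (0.0723), Prr5l (0.0731), Hadha (0.0779), Reep5 (0.0818) and Cpt1a (0.0867). For the synthesis gene Dgat1 they were Etfb (0.108), Hspa12a (0.132), Acss1 (0.134), C5ar1 (0.144) and Qsox1 (0.145), and for the lipolysis gene Mgll, Pla2g15 (0.0479), Myh9 (0.0491), Pgd (0.0542), Epb41l1 (0.0590) and Rps6ka1 (0.0592). These differences are in log2 units, and the points share their libraries and scaling.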

How the data were processed

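According to the methods, the authors cut adapters with Cutadapt, aligned to the GRCm38 transcriptome (release 99), estimated counts with RSEM (1.3.1 per the labels) and scaled them by TMM in limma. They retained genes that reached 1 CPM in at least 3 samples. The libraries were prepared with a directional kit, and the strand option of the counting and other versions were not given in the sources used here. CPM per gene and library are the values deposited by the authors. They step by whole reads (within 0.01 for 100% of values), and those reads entered edgeR 4.0.16, DESeq2 1.42.0 and limma-voom as alternatives.

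Log2 of the deposited CPM, with no further pseudocount, was fitted in limma 3.58.1 (R 4.3.3), with 1 mean for each of 3 groups over 10 libraries, a variance trend and two-sided moderated tests. Benjamini-Hochberg adjustment ran over the 12889 genes that reached 1 CPM in at least 3 fitted libraries, and a gene was called at an adjusted p under 0.05. The fits were also run on simulated data, with known changes in RXR-deficient mAMs only that were larger than that of Cidec there. That run does not check calls of smaller differences. Positions and lengths came from GENCODE vM21 (GRCm38), which held 12919 of the 12932 genes. The members and lists were chosen with earlier results of these data known. Named genes beyond the members are the RXR, LXR, PPAR and SREBP1 genes. They include the 5 nearest in pattern to the gene of each role with the highest mean CPM. Pathway genes are named where called with a mean of 5 CPM or above in the higher group (at most 8 per comparison). G0s2 and Pnpla3, below that level, are named for their few reads. Lipa and Ddhd2 are named to complete the calls of the lipolysis list in ImmAMs against control mAMs.

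The methods name lavage as the origin of the cells and the design text lung digestion, and they and the labels name different sequencers. Of the 60-base windows of the members' transcripts, 1.71% for Plin2 and 0.456% for Plin3 also occur in other genes, and 0 for the other 8. Genes on the opposite strand cover 16.0% of the exon bases of Abhd5, 15.6% of Lipe, 13% of Gpd1 and 3.29% of Mgll. Marker sums were also taken for B cells (Ms4a1, at most 1.60 CPM), club cells (Scgb1a1, at most 1.76 CPM), erythroid cells (0.531 to 9.55 CPM) and adipocytes (Plin1 alone). Markers of eosinophils, T cells, NK cells, alveolar type 2 cells, endothelial cells and fibroblasts were not analysed here. Alternatives changed the libraries (11 in all, 2 groups, each left out), the pseudocount (0.5 or 1), the filter (none or 5 CPM), the scaling, the variance model, the tool, a replicate block, an Xist term or a fold of 1.5.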

Additional observations from a re-analysis of the deposited data

Results flagged for a closer look

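Dgat2 stood at 45.8 CPM in replicate 1 of RXR-deficient mAMs, far from the other 3 libraries of its group, which lay between 39.6 and 39.7 CPM. The ratio of Dgat2 to Dgat1 was 0.463 in replicate 4 of RXR-deficient mAMs, away from the 0.587 to 0.606 of the others. In 26 such checks of groups of 4, chance gives about 1 in 20. Replicate 4 of RXR-deficient mAMs, which was not fitted, held Dgat1 at 85.0 CPM, above the highest control library at 76.5 CPM.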

How the results depend on the processing

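Among the 10 members, 2 calls in RXR-deficient mAMs (Cidec and Gpd1) became 1 with quantile normalization, with only the 2 groups compared and with a fold of at least 1.5 as well, and 0 without the variance trend, and rose to 3 with DESeq2 (with Mgll) and with array weights (with Plin2). Leaving out 1 library at a time gave 0 to 3 calls, with 0 without RXR-deficient mAM replicate 3. Libraries of the same replicate number correlated at −0.13 to 0.25 in their deviations from the group means, and those of different numbers at −0.28 to 0.23. Such correlations cannot show whether libraries of the same number came from the same mouse. With the replicate block the count was 0 (Cidec −0.45, adjusted p = 0.115, and Gpd1 −1.37, adjusted p = 0.0677). For the other pathway genes the 2 calls became 1 with all 11 libraries, only the 2 groups compared, no variance trend, edgeR, limma-voom or the fold of 1.5, became 0 with the replicate block, and ranged from 0 to 3 over the libraries left out. Their 17 calls between ImmAMs and RXR-deficient mAMs became 11 with the fold of 1.5 and ranged from 11 to 19 over the libraries left out, the lowest without ImmAM replicate 4. Over all genes, the 624 calls in RXR-deficient mAMs ranged from 122 (no variance trend) to 1368 (DESeq2), with 566 in edgeR, 337 with all 11 libraries, 199 with only the 2 groups, 174 with the replicate block, 315 with the fold of 1.5, and 162 to 861 over the libraries left out. The 6194 calls in ImmAMs against control mAMs became 3438 and the 4891 against RXR-deficient mAMs 2800 with that fold. The cause of these moves was not tested, apart from the fold, which by construction removes small differences. In ImmAMs, 9 or 10 members were called against control mAMs and 8 or 9 against RXR-deficient mAMs under every alternative run.

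With all 11 libraries the log2 ratios that passed were Dgat2 to Dgat1 (0.67 in ImmAMs against control mAMs and 0.65 against RXR-deficient mAMs), Plin2 to Plin3 (−1.16 and −1.08) and Cidec to Plin2 (−4.04 and −3.76, and −0.28 in RXR-deficient mAMs). The smallest p for ImmAMs against RXR-deficient mAMs is then 0.0286 in place of 0.1, which also lowers the adjusted p of the other tests. Log2 fold changes that changed sign all lay near 0, between the mAM groups, and passed in no fit. Over the libraries left out, Dgat1 ranged from −0.047 to 0.082, Agpat2 from −0.14 to 0.19, Gpd2 from −0.093 to 0.028, Lpin1 from −0.12 to 0.11, Ppard from −0.091 to 0.050 and Rxra from −0.048 to 0.049. With all 11 libraries Agpat2 was −0.018 and Ppard 0.021, Ppard was 0.0094 with array weights and 0.018 with the replicate block, and Rxra was −0.0029 with Xist as a covariate. Depth limits Gpd1, Plin1, G0s2 and Pnpla3 in ImmAMs, where 29 reads or fewer stand behind a value. It also limits Acsl3 in control mAMs, at 26 to 71 reads.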
